A study of Mus musculus with 160 samples.

Results

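Tdo2, Ido1, Ido2 and Afmid encode the enzymes of the opening steps of tryptophan breakdown, and these 4 genes were followed through 4 tissues of a mouse model of Huntington's disease. They were chosen by name, as 4 of the 39179 genes in the expression tables, and no measured value was used to choose them. R6/2 mice, labelled Tg(HDexon1)62Gpb, carry a transgene with the start of the human huntingtin gene and an expanded CAG repeat, driven by a fragment of the human promoter and active in many tissues. R6/2 and wild-type (WT) mice alike were on the C57BL/6J background and 12 weeks old. Each mouse had received 1 oral dose of 10 mg/kg CHDI-00340246, which the series title calls a KMO inhibitor, or of vehicle, a cyclodextrin solution in citrate buffer, and tissue was taken 6 h later. The groups were R6/2 with CHDI-00340246, R6/2 with vehicle, WT with CHDI-00340246 and WT with vehicle, in striatum, cortex, cerebellum and liver. Each of these 16 groups held 10 RNA libraries, 5 from females and 5 from males.

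Most dietary tryptophan that is not built into protein is broken down along the kynurenine pathway. Its opening step, the oxygenation of tryptophan to N-formylkynurenine, can be carried out by tryptophan 2,3-dioxygenase (Tdo2), the main enzyme of the liver and a classical target of glucocorticoids, or by indoleamine 2,3-dioxygenase 1 (Ido1), which interferon gamma induces in immune and other cells. Ido2 is a paralogue of Ido1 with much weaker activity on tryptophan. Arylformamidase (Afmid) then removes the formyl group and yields kynurenine, from which kynurenine 3-monooxygenase (Kmo, the enzyme that CHDI-00340246 is labelled to inhibit) and the kynurenine aminotransferases lead to separate branches.

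In GRCm38 coordinates Tdo2 (ENSMUSG00000028011) lies on the minus strand of chromosome 3, from 81957090 to 81976202. Ido1 (ENSMUSG00000031551, 24584136 to 24597009) and Ido2 (ENSMUSG00000031549, 24531892 to 24576333) are neighbours on the minus strand of chromosome 8, with 7803 bases between them. Afmid (ENSMUSG00000017718) is on the plus strand of chromosome 11, from 117825924 to 117839908. Because reads from a near-identical pair could be split between its members, the coding sequences of Ido1 and Ido2 were aligned. They were identical at 57.2% of 1200 aligned bases. The longest run of bases they share is 15, given in capitals within coding bases 218 to 272 of the GENCODE M21 transcripts.
Ido1: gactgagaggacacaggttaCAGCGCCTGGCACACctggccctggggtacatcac
Ido2: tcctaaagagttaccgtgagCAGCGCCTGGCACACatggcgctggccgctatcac
The estimated counts of Ido1 were whole numbers in 100% of libraries and those of Ido2 in 93.75%, within 1e-06 of an integer, so few or no reads of this pair were assigned in fractions. Tdo2 had whole counts in 94.38% of libraries. Afmid had them in 8.125%. It shares 13981 bases, 1566 of them exonic, with Gm20708 (ENSMUSG00000093485), a transcript on the same strand that spans Syngr2 and Afmid. Afmid values therefore depend on how the counting divided reads between these annotations. Its start also overlaps that of Tk1 (thymidine kinase 1), on the opposite strand, by 169 bases, and whether the counting used strand is not given in the sources used here.

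Sequencing gave 36.5 ± 3.69 M (mega) estimated counts per library (SD, n = 160), between 28.5 and 46.3 M. After removal of genes with low counts, all 4 genes were tested in the striatum and cortex. Tdo2 and Afmid were tested in the cerebellum, and Tdo2, Ido2 and Afmid in the liver. Levels are given as CPM (counts scaled to library size by the TMM method) unless the authors' FPKM, which divides by gene length, is named. The labels do not say which tissues came from the same animal. The specimen numbers in the library names run through the groups and sexes in the same order in each tissue, so tissues may share animals. Comparisons between tissues treated all libraries as independent, and p-values measure the spread between these libraries. In bulk tissue, fewer cells of a type and less RNA per cell cannot be told apart.

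The 4 genes had different tissue distributions, shown in the plot of FPKM by tissue. In the liver of WT vehicle mice Tdo2 averaged 535 ± 154.8 FPKM, Afmid 63.6 ± 17.5 FPKM and Ido2 33.7 ± 3.81 FPKM (SD, n = 10 each), while Ido1 averaged 0.00665 ± 0.00860 FPKM. In the striatum of the same group the order was different, with Ido1 at 15.2 ± 1.87 FPKM, Afmid at 0.760 ± 0.222 FPKM, Ido2 at 0.644 ± 0.0909 FPKM and Tdo2 at 0.347 ± 0.133 FPKM. The liver was thus led by Tdo2 and the striatum by Ido1, each by a margin wider than the spread between libraries. In the cortex Afmid averaged 1.21 FPKM, Ido2 0.688 FPKM, Tdo2 0.348 ± 0.150 FPKM and Ido1 0.280 ± 0.155 FPKM. In the cerebellum Tdo2 led at 2.85 ± 0.398 FPKM, followed by Afmid at 0.392 FPKM, Ido2 at 0.0435 FPKM and Ido1 at 0.0181 FPKM.

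**Figure D1:**
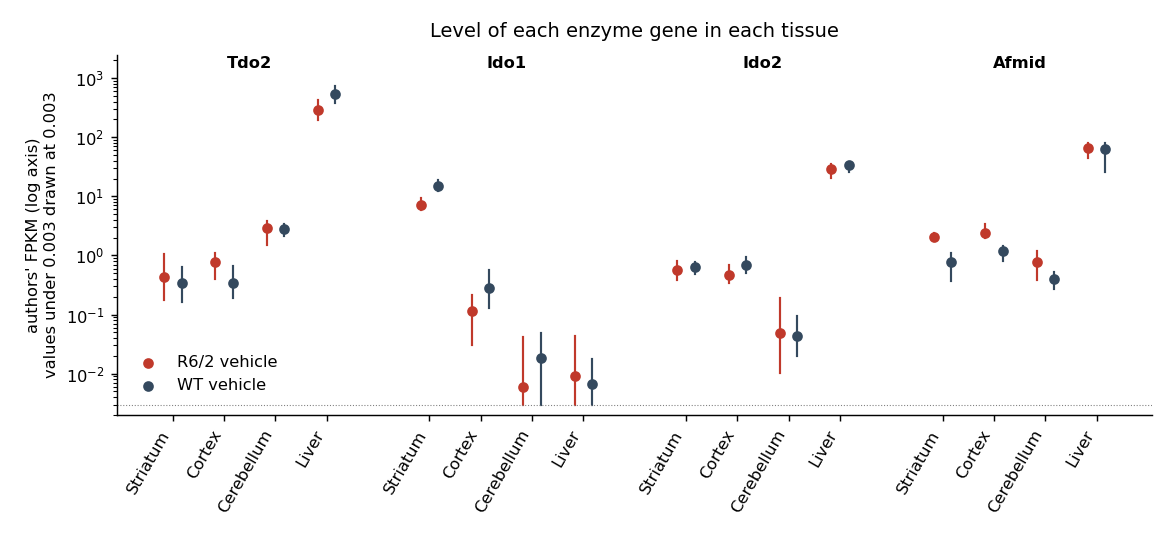
Authors' FPKM of Tdo2, Ido1, Ido2 and Afmid by tissue in R6/2 and WT vehicle mice, on a log axis, with the mean (point) and the lowest to highest value (line) of 10 libraries per group, values under the dotted line being drawn at it. Tdo2, Ido2 and Afmid were highest in the liver, and Ido1 was highest in the striatum, where it averaged 15.2 FPKM in WT vehicle mice.

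Differences between tissues in WT vehicle mice were tested with 1 edgeR quasi-likelihood fit over all 160 libraries and 19446 genes, with Benjamini-Hochberg adjustment within each pair of tissues. Between striatum and cortex 2 of the 4 genes passed, in a comparison where 56.5% of all genes did. Ido1 was 54.1-fold higher in the striatum than in the cortex (log2 difference 5.76 ± 0.22, SE). Afmid was lower in the striatum than in the cortex (log2 difference −0.53 ± 0.16, SE; adjusted p = 0.00273). Tdo2 (0.19 ± 0.20, adjusted p = 0.449) and Ido2 (0.01, adjusted p = 0.948) did not pass, so these neighbours in the order of levels were not separated. Between striatum and cerebellum, where 73.7% of genes passed, all 4 did: Tdo2 was lower in the striatum by 2.77 on the log2 scale, while Ido1 was higher by 9.73 and Afmid by 1.05. The cortex, with 71.1% of genes passing, was likewise lower than the cerebellum for Tdo2 (−2.96) and higher for Ido2 (22.1-fold), Ido1 (3.98) and Afmid (1.59). The liver stood far above the brain tissues for Tdo2, which was lower in the striatum than in the liver by 11.6 and in the cerebellum by 8.86 on the log2 scale. Of all genes 89.4% passed between striatum and liver and 90.1% between cerebellum and liver. Ido1 in the cerebellum and in the liver was not separated (0.15, adjusted p = 0.876).

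The question put by the genotype is how these genes stand in R6/2 tissue against WT tissue. With vehicle, 3 of the 4 genes tested in the striatum passed an adjusted p of 0.05 (edgeR), beside 56.2% of all 17494 genes. In the cortex 4 of 4 passed, beside 55% of genes. In the cerebellum 1 of 2 passed, beside 52.3%, and in the liver 2 of 3, beside 25.7%. With so many genes passing in the brain, the number that passed among 4 is near what the table as a whole gives, and the sizes and directions below are the description. In the groups given CHDI-00340246 the counts were 3 of 4 in the striatum (58.1% of all genes), 4 of 4 in the cortex (57.1%), 2 of 2 in the cerebellum (54.6%) and 2 of 3 in the liver (28.8%).

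Tdo2 was lower in the R6/2 liver and higher in the R6/2 cortex. In the liver its lowest, median and highest values were 485, 674 and 1075 CPM in R6/2 vehicle mice, against 978, 1305 and 2210 CPM in WT vehicle mice. All 10 R6/2 libraries lay below the WT mean and 8 lay below the lowest WT library, so the groups overlapped only at their edges. The fold was 0.496 (log2 −1.01 ± 0.14, SE; adjusted p = 2.174e-06, edgeR), and 3.83% of the genes tested in the liver changed by at least as much. In mice given CHDI-00340246 the values were 510, 662 and 925 CPM in R6/2 liver, against 901, 1513 and 2266 CPM in WT liver (log2 −1.20 ± 0.14; adjusted p = 6.585e-08). These libraries are separate from the vehicle libraries and had the same direction.

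The sexes of the liver groups were also read apart. In R6/2 vehicle livers Tdo2 averaged 744 ± 252 CPM in females and 700 ± 186 CPM in males (SD, n = 5 each), less than 1 SD apart. In WT vehicle livers it averaged 1105 ± 89.4 CPM in females and 1915 ± 314 CPM in males, and the difference, female minus male, was −0.79 ± 0.20 on the log2 scale (adjusted p = 0.00629, edgeR). In this comparison within WT mice 10.5% of liver genes passed. The genotype effect in females minus that in males was 0.88 ± 0.28 (p = 0.00291), which did not pass adjustment (adjusted p = 0.0617, edgeR), in a comparison where 4.28% of genes did. The call depends on the tool and the libraries: DESeq2 gave 0.89 with an adjusted p of 0.0277, and edgeR passed without replicate 1 (1.16, adjusted p = 0.0130) or replicate 5 (1.09, adjusted p = 0.0497). With CHDI-00340246 the means were 666 ± 164 CPM in R6/2 females and 692 ± 146.6 CPM in R6/2 males, against 1238 ± 219 CPM in WT females and 1955 ± 317 CPM in WT males. As with vehicle, WT females lay below WT males, while in R6/2 mice the sexes were less than 1 SD apart. The female and male points of each liver group are shown separately in the plot of Tdo2 by library.

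**Figure D2:**
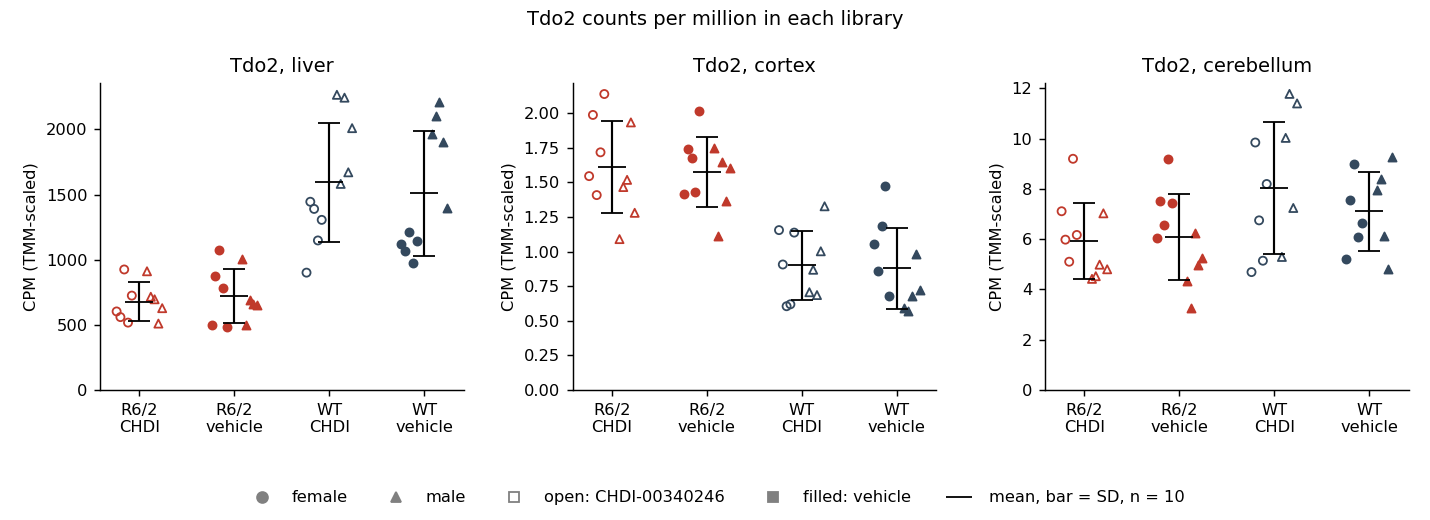
Tdo2 in CPM (TMM-scaled) in each library of liver, cortex and cerebellum, by group, open symbols for CHDI-00340246 and filled ones for vehicle, with females and males as separate markers and the mean and SD of each group of 10. R6/2 livers with vehicle sat between 485 and 1075 CPM, against 978 to 2210 CPM in WT livers with vehicle, and in the cortex 6 of 10 R6/2 libraries with vehicle lay above the highest WT one.

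In the cortex Tdo2 had lowest, median and highest values of 1.11, 1.63 and 2.01 CPM in R6/2 vehicle mice, against 0.573, 0.791 and 1.48 CPM in WT vehicle mice. All 10 R6/2 libraries lay above the WT mean and 6 lay above the highest WT library. The fold was 1.82 (log2 0.87 ± 0.15, SE; adjusted p = 5.481e-06, edgeR), and 7.19% of cortex genes changed by at least as much. With CHDI-00340246 the log2 difference was 0.82 ± 0.15 (adjusted p = 1.102e-05), from 1.09, 1.53 and 2.14 CPM in R6/2 mice against 0.605, 0.888 and 1.33 CPM in WT mice.

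In the striatum Tdo2 was at 0.496, 1.04 and 2.28 CPM (lowest, median, highest) in R6/2 vehicle mice, against 0.520, 0.976 and 1.53 CPM in WT vehicle mice, and the groups covered the same range (log2 0.15 ± 0.22; adjusted p = 0.577). In the cerebellum it was at 3.28, 6.15 and 9.20 CPM in R6/2 vehicle mice, against 4.80, 7.11 and 9.26 CPM in WT vehicle mice, again with wide overlap (−0.25 ± 0.15; adjusted p = 0.169), and passed only without replicate 4 (−0.40, adjusted p = 0.0358). With CHDI-00340246 the cerebellar difference passed (−0.43 ± 0.15, adjusted p = 0.0156, edgeR). It did not pass with the L code of the library names, whose meaning is not given, as a covariate (−0.17, adjusted p = 0.472). Nor did it pass without replicate 2, 3 or 5 (adjusted p up to 0.1602). The genotype effect of Tdo2 itself differed between tissues in the fit over all libraries. The effect in the cortex minus that in the liver was 1.84 ± 0.23 (adjusted p = 6.88e-11), with 30.5% of genes passing, and the effect in the cortex minus that in the cerebellum was 1.10 ± 0.24 (adjusted p = 0.000148), with 21.6% passing. Against the liver, the effect was larger by 1.15 ± 0.24 in the striatum (adjusted p = 3.23e-05) and by 0.74 ± 0.21 in the cerebellum (adjusted p = 0.00254), where 37.4% and 32.2% of genes passed. The striatal effect minus the cortical one was −0.69 ± 0.27 (adjusted p = 0.0647) and did not pass, in a comparison where 15.6% of genes did. It passed without replicate 1 (−0.81, adjusted p = 0.0396) and without replicate 4 (−0.93, adjusted p = 0.0319).

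Since Tdo2 is a liver gene, hepatocyte transcripts were measured in the brain libraries. Of 8 hepatocyte markers, 7 matched a gene of the table, and 0 of these 7 passed between the genotypes in any brain tissue, beside the 56.2%, 55% and 52.3% of all genes given above. The sum of 6 of them, without transthyretin, which the choroid plexus also makes (Alb, Apoa1, Apob, Fgb, Cyp2e1 and Serpina1c), was at 0.433, 14.9 and 94.3 CPM (lowest, median, highest) in R6/2 vehicle cortex, against 1.004, 15.5 and 20.1 CPM in WT vehicle cortex. At the ratio of Tdo2 to these markers in the liver of the same group, a median of 0.0919 CPM of Tdo2 would accompany them in R6/2 cortex and 0.239 CPM in WT cortex. The observed medians were 1.63 CPM and 0.791 CPM, and the observed level was above the accompanying one in all 10 libraries of each group. The same was true of every cerebellar and striatal library in the vehicle groups, but in the striatum the margin was narrow. There the accompanying median was 0.169 CPM in R6/2 mice and 0.482 CPM in WT mice, beside observed medians of 1.04 CPM and 0.976 CPM. These ratios were chosen after the values were seen. Within the 40 cortical libraries, deviations of Tdo2 from its group and sex means went most closely with Nipsnap1 (r = 0.641), Gc (0.639) and Cps1 (0.622). In the cerebellum they went most closely with Folh1 (0.648), Tcte2 (0.643) and Cyp4f15 (0.633). The part of liver transcripts in the brain values of Tdo2 was not tested.

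Ido1 was lower in R6/2 striatum, the tissue where it is most abundant. Its lowest, median and highest values were 8.56, 10.7 and 15.5 CPM in R6/2 vehicle mice, against 20.5, 25.6 and 33.5 CPM in WT vehicle mice. The groups did not overlap, as was the case for 17.1% of genes in this comparison. The fold was 0.421, with a 95% interval of 0.364 to 0.486 (log2 −1.25 ± 0.11, SE; adjusted p = 1.331e-12, edgeR), and 4.01% of striatal genes changed by at least as much. With CHDI-00340246 the values were 7.34, 9.89 and 12.8 CPM in R6/2 mice, against 18.2, 21.4 and 31.6 CPM in WT mice (log2 −1.24 ± 0.11; adjusted p = 1.736e-12).

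In the cortex Ido1 was rare. Its lowest, median and highest values were 0.0484, 0.1699 and 0.341 CPM in R6/2 vehicle mice, from 64 counts over 10 libraries, against 0.222, 0.367 and 0.964 CPM in WT vehicle mice, from 171 counts. All 10 R6/2 libraries lay below the WT mean and 7 below the lowest WT library. The fold was 0.381 (log2 −1.39 ± 0.33, SE; adjusted p = 0.000492, edgeR), and its 95% interval of 0.243 to 0.597 is wide and rests on few reads. With CHDI-00340246 the log2 difference was −1.67 ± 0.36 (adjusted p = 0.000149), from 0.0336, 0.0729 and 0.347 CPM in R6/2 mice, against 0.210, 0.282 and 0.871 CPM in WT mice. The striatal effect minus the cortical effect was 0.17 ± 0.29 (adjusted p = 0.776), and the tissues were not shown to differ.

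In the cerebellum Ido1 had 4 counts over all R6/2 vehicle libraries and 10 over all WT vehicle libraries. In the liver it had 6 counts in R6/2 vehicle mice and 4 in WT vehicle mice. R6/2 livers with CHDI-00340246 had 0 counts in 10 libraries, which allows a level of up to 0.00745 CPM over the group at 3 counts, and this covers counting error only. No genotype comparison of Ido1 was detectable at this depth in these 2 tissues.

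**Figure D3:**
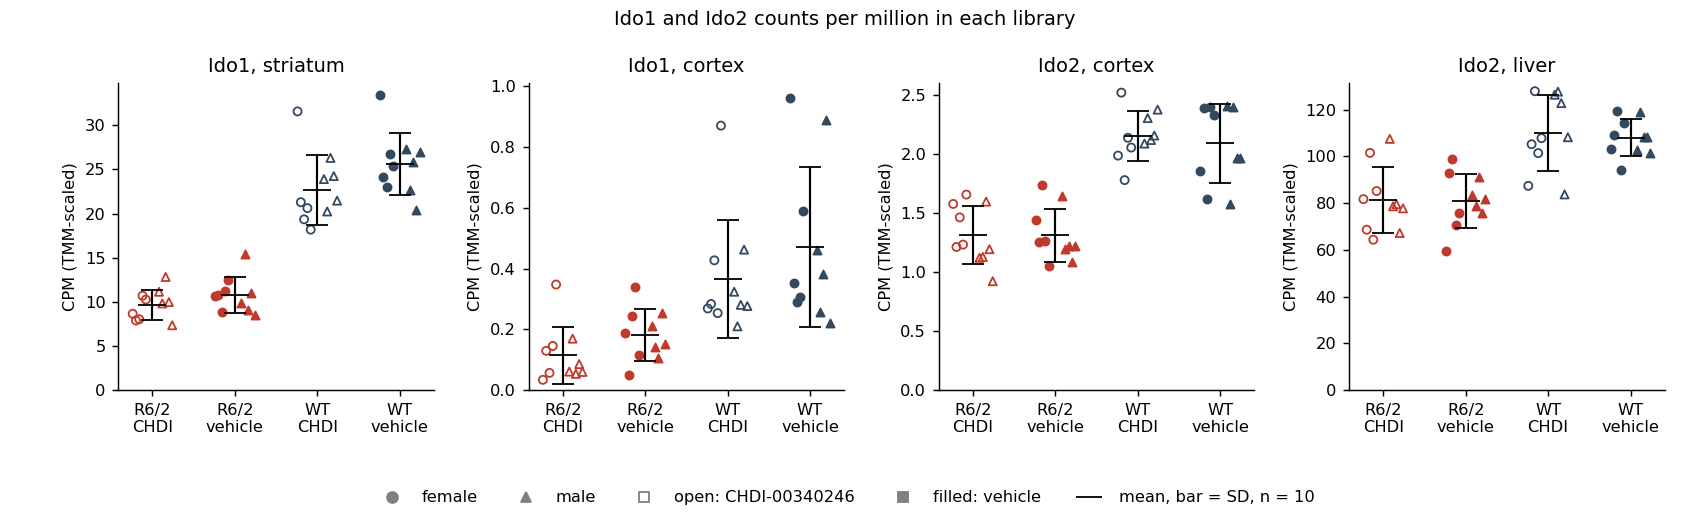
Ido1 in striatum and cortex and Ido2 in cortex and liver, in CPM (TMM-scaled) in each library by group, with open symbols for CHDI-00340246, filled ones for vehicle, and the mean and SD of each group of 10. In the striatum Ido1 lay between 8.56 and 15.5 CPM in R6/2 vehicle mice and between 20.5 and 33.5 CPM in WT vehicle mice, and in the liver 9 of 10 R6/2 vehicle libraries had less Ido2 than the lowest WT vehicle library.

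The genes whose group means followed those of Ido1 most closely over the 16 groups of tissue, genotype and treatment were Adora2a (Pearson r = 0.996), the adenosine receptor of indirect-pathway spiny neurons, Sstr5 (0.994), a somatostatin receptor, and Mhrt (0.993). These points share tissue differences that span the whole range, so the likeness is a description of where the gene is expressed. Medium spiny neuron markers were lower in R6/2 striatum as a group. Of 12 markers tested there, 0 passed higher and 11 passed lower, beside 29.7% and 26.5% of all genes, with a median log2 difference of −1.59 beside 0.0183 over all genes. Their summed level ran from 2405 to 3200 CPM in R6/2 vehicle striatum, against 8595 to 10340 CPM in WT vehicle striatum. Scn4b, a sodium channel subunit, was at −3.34 ± 0.08 and Penk, the enkephalin precursor, at −2.25 ± 0.09. Tac1, the substance P precursor and the 1 marker that did not pass, was at −0.14 ± 0.09 (adjusted p = 0.202). Tac1 was named after its value was seen.

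Adora2a was at 89.5 ± 13.4 CPM in R6/2 vehicle striatum, against 323 ± 35.5 CPM in WT vehicle striatum (SD, n = 10 each; log2 −1.85 ± 0.09). Its log2 difference was therefore larger in size than that of Ido1, and Ido1 stood at 12.0 CPM per 100 CPM of Adora2a in R6/2 mice and at 7.94 in WT mice. In the cortex, where dissection can include striatal tissue, Drd2, Adora2a and Gpr6 together were at 2.77, 9.03 and 12.8 CPM in R6/2 vehicle libraries, against 2.64, 4.84 and 43.1 CPM in WT vehicle libraries. The medians of Drd2 (2.83 against 0.877 CPM) and Adora2a (5.16 against 2.47 CPM) had this order. That of Gpr6 had the opposite one (0.999 against 1.63 CPM). So had the sum of all 12 medium spiny neuron markers, with medians of 366 CPM in R6/2 and 479 CPM in WT vehicle cortex. The 3 markers and their ratios were chosen after the values were seen. At the striatal ratio of Ido1 to these 3 markers, a median of 0.566 CPM of Ido1 would accompany them in R6/2 cortex and 0.225 CPM in WT cortex. The observed medians were 0.1699 CPM in R6/2 cortex and 0.367 CPM in WT cortex. The accompanying level exceeded the observed one in 10 of 10 R6/2 libraries and in 5 of 10 WT libraries. With CHDI-00340246 the order of the 3 markers was the reverse, with medians of 2.82 CPM in R6/2 cortex and 4.09 CPM in WT cortex. The accompanying medians there were 0.1645 CPM in R6/2 and 0.169 CPM in WT mice, beside observed medians of 0.0729 and 0.282 CPM. The accompanying level exceeded the observed one in 9 of 10 R6/2 and 2 of 10 WT libraries with CHDI-00340246. The part of striatal tissue in the cortical difference was not tested.

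Interferon gamma is the best known inducer of Ido1, and more of its response genes passed higher than lower in R6/2 striatum and cortex. In the striatum 8 of 16 tested genes of this list passed higher and 3 lower, beside 29.7% and 26.5% of all genes. The list's median log2 difference was 0.40 beside 0.0183 over all genes. Irgm1, an interferon-induced GTPase, was at 13.2 ± 1.06 CPM in R6/2 vehicle striatum and at 6.95 ± 0.881 CPM in WT vehicle striatum (SD, n = 10 each; log2 0.93 ± 0.06, SE). Irf7, an interferon regulatory factor (1.962 ± 0.14), and Igtp, also an interferon-induced GTPase (0.92 ± 0.10), passed as well. In the cortex 12 of 16 passed higher and 1 lower, beside 28.1% and 26.9% of all genes. The cytokine itself, Ifng, was below 0.05 CPM in every library of both vehicle groups of the striatum. Of the dendritic cell markers, a cell type known for Ido1, 1 of 6 tested in the striatum passed higher and 3 lower, with summed levels of 24.8 to 34.1 CPM in R6/2 vehicle mice and 29.6 to 39.8 CPM in WT vehicle mice. Of the endothelial markers 0 of 7 passed higher and 6 lower, with sums of 160 to 197 CPM in R6/2 vehicle striatum and 173 to 222 CPM in WT vehicle striatum. The part of interferon and of these cell types in the Ido1 difference was not tested.

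Over the 40 striatal libraries, deviations of Ido1 from the means of its group and sex went most closely with those of Arpc2 (r = 0.833), a subunit of the actin-nucleating complex, Zmat2 (0.821) and Eif4a1 (0.819), a translation initiation factor. All genes of a library share its depth and composition, so these values are a description only.

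Ido2 was lower in R6/2 mice in each of the 3 tissues where it was tested. In the liver its lowest, median and highest values were 59.4, 80.3 and 99.1 CPM in R6/2 vehicle mice, against 94.4, 108.3 and 119.6 CPM in WT vehicle mice. Of the 10 R6/2 libraries, 9 lay below the lowest WT library. The fold was 0.749 (log2 −0.42 ± 0.09, SE, adjusted p = 0.00116, edgeR), and 19.6% of liver genes changed by at least as much. When library totals replaced TMM scaling, the log2 difference was smaller at −0.23 and passed narrowly (adjusted p = 0.0441, edgeR). Between females and males of the WT vehicle liver Ido2 did not pass (female minus male 0.0022 ± 0.13 on the log2 scale, adjusted p = 0.994). In mice given CHDI-00340246 the log2 genotype difference in the liver was −0.44 ± 0.09 (adjusted p = 0.000559).

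In the cortex Ido2 was at 1.05, 1.24 and 1.74 CPM in R6/2 vehicle mice, against 1.58, 2.15 and 2.41 CPM in WT vehicle mice. Of the R6/2 libraries 8 lay below the lowest WT library (fold 0.628; log2 −0.67 ± 0.11, SE; adjusted p = 1.335e-06, edgeR). With CHDI-00340246 the cortical groups did not overlap, as for 18.3% of genes there, and the log2 difference was −0.72 ± 0.11 (adjusted p = 3.255e-07). The striatum showed a smaller difference with broad overlap, at 1.15, 1.503 and 2.24 CPM in R6/2 vehicle mice, against 1.59, 2.05 and 2.52 CPM in WT vehicle mice (log2 −0.41 ± 0.12; adjusted p = 0.00336). The striatal effect minus the cortical one was 0.27 ± 0.18 (adjusted p = 0.329, edgeR), and these 2 tissues were not shown to differ. The striatal call with vehicle was lost when library totals replaced TMM scaling (−0.26, adjusted p = 0.0641) and with the authors' FPKM plus a pseudocount of 1 (−0.063, adjusted p = 0.236). In the cerebellum Ido2 was too rare to test, with 34 counts over the R6/2 vehicle libraries and 32 over the WT vehicle libraries.

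Ido1 and Ido2 lie side by side, and within 250 kb of either, the only other gene that passed in striatum or cortex with vehicle was the paralogue. Few genes were tested there, the paralogue included: 5 in the striatum and 4 in the cortex around Ido1, and 4 and 3 around Ido2. Over all genes 56.2% passed in the striatum and 55% in the cortex. The effect of Ido2 in the striatum minus that in the liver was −0.02, and the effect in the cortex minus that in the liver was −0.29 ± 0.15 (adjusted p = 0.142). Over the 16 group means Ido2 was most like Oaf (r = 0.996), Hebp1 (0.994), which encodes a heme-binding protein, and Bco2 (0.994), a carotenoid oxygenase. Within the 40 liver libraries its deviations went most closely with Ceacam1 (0.802), a cell adhesion molecule, Tdo2 (0.719) and Lamp2 (0.710), a lysosomal membrane protein. Those of Tdo2 went most closely with Ciart (0.802), a repressor of the circadian clock, Klf13 (0.801) and Etnk2 (0.779), an ethanolamine kinase.

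Afmid was higher in R6/2 mice in all 3 brain tissues and not in the liver. In the striatum its lowest, median and highest values were 2.90, 3.34 and 4.07 CPM in R6/2 vehicle mice, against 0.726, 1.52 and 1.95 CPM in WT vehicle mice. The groups did not overlap, as for 17.1% of genes there. Afmid had a fold of 2.40, with a 95% interval of 1.99 to 2.89 (log2 1.26 ± 0.14, SE, adjusted p = 6.477e-10, edgeR). Changes at least as large were seen in 3.88% of striatal genes. In the cortex the values were 2.90, 3.73 and 5.01 CPM in R6/2 vehicle mice, against 1.72, 2.03 and 2.67 CPM in WT vehicle mice, also without overlap, as for 14.1% of genes (fold 1.84; log2 0.88 ± 0.12; adjusted p = 3.912e-08). In the cerebellum they were 0.483, 1.27 and 1.804 CPM in R6/2 vehicle mice, against 0.526, 0.730 and 0.950 CPM in WT vehicle mice. There 9 of the R6/2 libraries lay above the highest WT library and 1 below the lowest (fold 1.70; log2 0.76 ± 0.21; adjusted p = 0.00226).

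Passing higher in all 3 brain tissues was no rare pattern: 2058 of the 16469 genes tested in the 3 tissues, 12.5%, did so. Exceeding a log2 difference of 1 in both striatum and cortex was rarer, at 87 genes or 0.528%, and Afmid was not among them with 0.88 in the cortex. With CHDI-00340246 the log2 differences of Afmid were 1.31 ± 0.14 in the striatum, 1.18 ± 0.12 in the cortex and 1.18 ± 0.21 in the cerebellum, with adjusted p-values of 2.748e-10, 5.109e-11 and 1.033e-05 (edgeR). In the liver Afmid was at 93.6, 136.3 and 174 CPM in R6/2 vehicle mice, against 73.8, 162.6 and 179.6 CPM in WT vehicle mice, and the groups covered the same range (−0.13 ± 0.13; adjusted p = 0.506). The sexes stood in opposite order there, at 118.1 ± 14.8 CPM in R6/2 females and 155.8 ± 13.97 CPM in R6/2 males, against 161 ± 24.3 CPM in WT females and 136.1 ± 40.8 CPM in WT males. The test of the difference of the genotype effect between sexes gave −0.64 ± 0.26 (p = 0.0202, adjusted p = 0.180, edgeR).

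**Figure D4:**
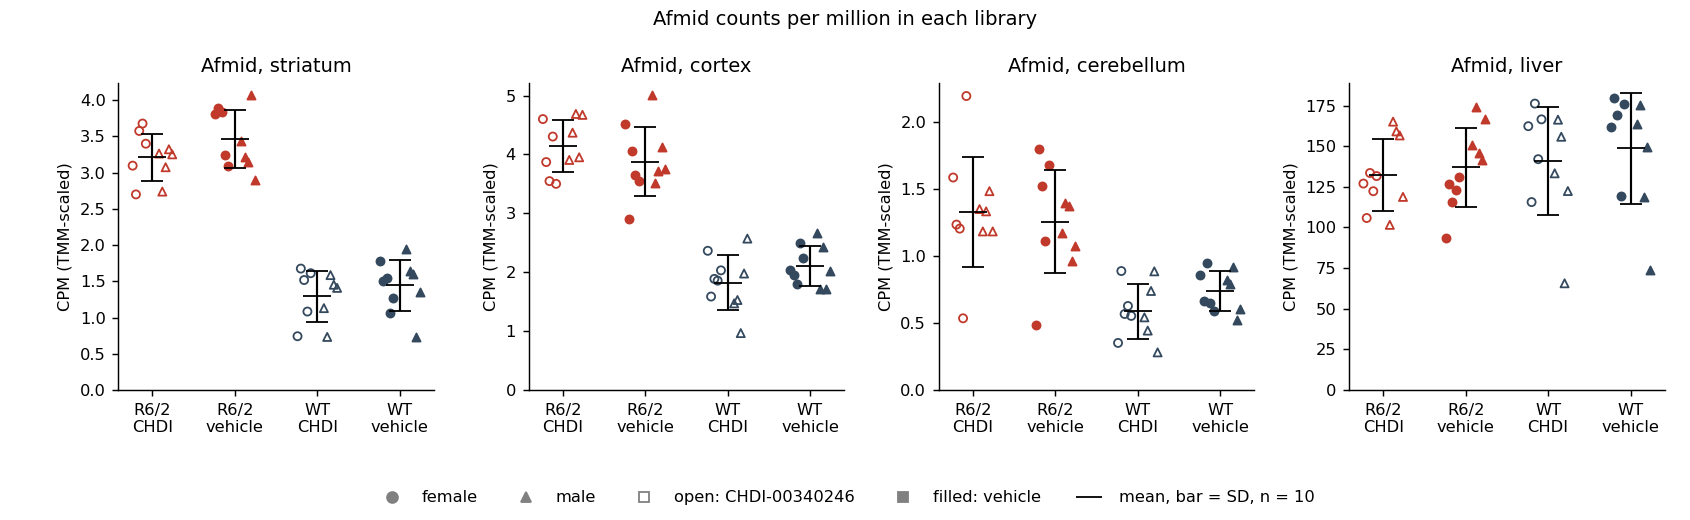
Afmid in CPM (TMM-scaled) in each library by tissue and group, with open symbols for CHDI-00340246, filled ones for vehicle, and the mean and SD of each group of 10. R6/2 libraries with vehicle sat at 2.90 to 4.07 CPM in the striatum and 2.90 to 5.01 CPM in the cortex, above the WT vehicle libraries at 0.726 to 1.95 CPM and 1.72 to 2.67 CPM, while liver groups covered the same range.

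The genotype effect of Afmid differed between brain and liver. It was larger by 1.38 ± 0.19 in the striatum than in the liver (adjusted p = 1.13e-09), by 0.97 ± 0.18 in the cortex (adjusted p = 7.85e-06) and by 0.87 ± 0.22 in the cerebellum (adjusted p = 0.000886). The striatal effect minus the cortical one was 0.41 ± 0.21 and did not pass (adjusted p = 0.198). The overlapping transcript Gm20708 moved with Afmid: it was at 0.432 ± 0.360 CPM in R6/2 vehicle striatum and 0.104 ± 0.107 CPM in WT vehicle striatum (log2 2.15 ± 0.67, SE; adjusted p = 0.00682). With the counts of both annotations summed, the log2 genotype differences were 1.33 in the striatum, 0.96 in the cortex, 1.004 in the cerebellum and −0.12 in the liver. The brain calls were kept with this sum. It can include reads from Syngr2, which Gm20708 also spans and which passed higher in R6/2 cortex and cerebellum with vehicle. The part of Syngr2 and Tk1 reads in these values was not tested.

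Other genes of the neighbourhood were read because Afmid starts head to head with Tk1. Tk1 did not pass in the striatum (−0.08 ± 0.15) or the cortex (0.33 ± 0.16) and passed in the cerebellum (0.95 ± 0.14). Birc5 (survivin, an inhibitor of apoptosis that acts in cell division), which starts 9343 bases beyond Afmid on the same strand, passed higher in all 3 brain tissues. It averaged 1.31 ± 0.283 CPM in R6/2 vehicle striatum and 0.9704 ± 0.283 CPM in WT vehicle striatum (log2 0.43 ± 0.16). In the cerebellum it averaged 0.740 ± 0.133 CPM in R6/2 mice and 0.243 ± 0.118 CPM in WT mice (1.63 ± 0.23), and in the liver it did not pass (−0.05 ± 0.18). Of the genes tested within 250 kb of Afmid, 3 of 13 passed higher and 2 lower in the striatum, 3 of 12 higher and 4 lower in the cortex, and 5 of 11 higher and 2 lower in the cerebellum, shares that lie around those of all genes (56.2%, 55% and 52.3% in both directions). In the liver 1 of 11 passed higher and 0 lower, beside 12.9% and 12.8%. Around Tdo2, its nearest neighbour Ctso, which encodes cathepsin O and lies 365 bases away, was at 0.13 ± 0.07 in the liver and −0.04 ± 0.05 in the cortex and passed in neither, while it passed higher in the cerebellum (0.12 ± 0.05, adjusted p = 0.0476, edgeR). Gucy1a1 and Gucy1b1, which encode the subunits of the nitric oxide receptor guanylate cyclase, passed in the direction opposite to Tdo2 in both tissues where Tdo2 passed with vehicle. In the liver Gucy1a1 was at 0.38 ± 0.13 and Gucy1b1 at 0.33 ± 0.10, and in the cortex they were at −0.66 ± 0.06 and −0.10 ± 0.04.

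Over the 16 group means Afmid was most like Tmem19 (r = 0.997), Pgrmc1 (0.997), a heme-binding membrane protein, and Nipsnap3b (0.996). Within the 40 liver libraries its deviations went most closely with Slco1a4 (0.893), an organic anion transporter, Aldh4a1 (0.868), which acts in proline breakdown, and Gsta3 (0.858), a glutathione transferase. In the striatum and cortex the highest values were only 0.626 (Mrgpre) and 0.562 (Atraid), at levels of few reads per library.

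The drug comparison asks whether 1 dose of CHDI-00340246 had moved these transcripts after 6 h. None of the 4 genes passed in any tissue for the drug averaged over both genotypes (edgeR, 0 of 13 gene and tissue pairs, 3 of them at an unadjusted p under 0.05), and DESeq2 gave 0 as well. Over all genes 0.0% passed in the striatum, 0.188% in the cortex, 0.00581% in the cerebellum and 0.0% in the liver. The pairs at an unadjusted p under 0.05 were Tdo2 in the striatum (log2 −0.34 ± 0.16, p = 0.0340, adjusted p = 0.606), Ido1 in the striatum (−0.17 ± 0.07, p = 0.0316, adjusted p = 0.606) and Ido1 in the cortex (−0.51 ± 0.25, p = 0.0456, adjusted p = 0.394). For Ido1 in the striatum the means were 9.65 ± 1.70 CPM in R6/2 mice with CHDI-00340246 and 10.8 ± 2.04 CPM in R6/2 mice with vehicle, and 22.7 ± 3.96 CPM in WT mice with CHDI-00340246 and 25.6 ± 3.52 CPM in WT mice with vehicle, so the difference was within 1 SD of the libraries in each genotype.

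In the liver, the tissue with the most Tdo2, the drug difference of Tdo2 was 0.0045 on the log2 scale, with a 95% interval of −0.19 to 0.20, which leaves out changes beyond 0.879-fold and 1.15-fold. The interval for Ido2 in the liver was −0.11 to 0.14 and that for Afmid −0.24 to 0.12. Effects within these intervals were not detectable with these libraries. The drug effect in R6/2 mice minus that in WT mice passed for 0 of the 13 pairs. The smallest unadjusted p of that interaction was for Afmid in the cortex, at 0.30 ± 0.16 (p = 0.0720, adjusted p = 0.926, edgeR), and 0.0% of genes passed it in each tissue.

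**Figure D5:**
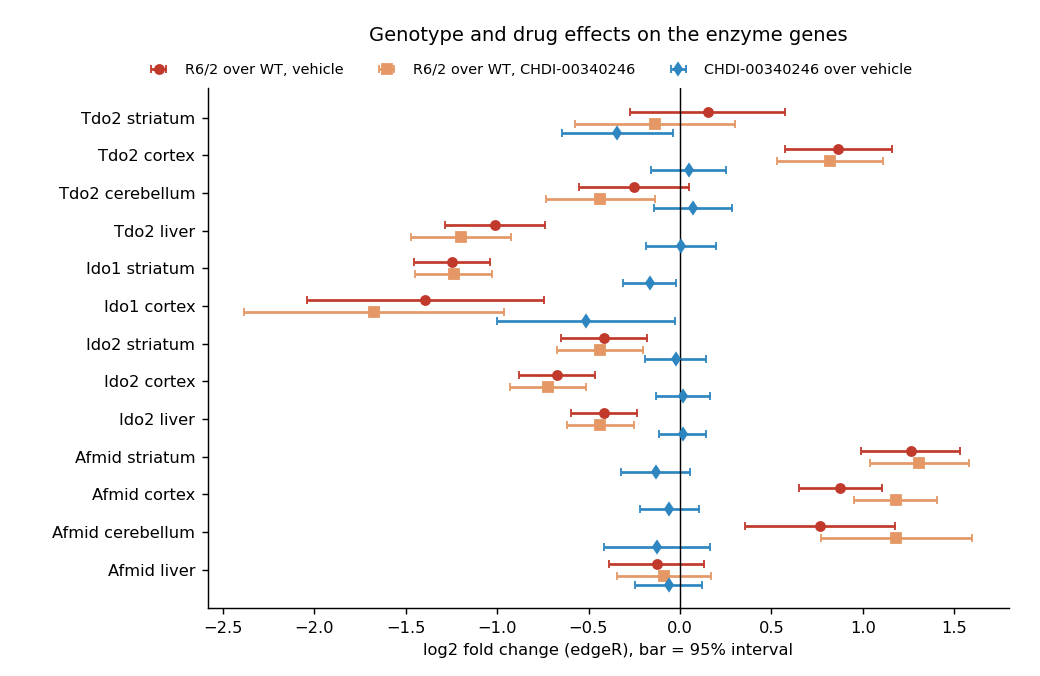
Log2 differences of the 4 genes by tissue, with 95% intervals, for R6/2 against WT with vehicle and with CHDI-00340246 and for CHDI-00340246 against vehicle over both genotypes. Genotype intervals lie clear of 0 for Ido1 and Ido2 below it and for Afmid above it in striatum and cortex. The drug intervals include 0 except for 3. These are Tdo2 in the striatum (−0.646 to −0.037) and Ido1 in the striatum (−0.313 to −0.021) and cortex (−0.999 to −0.027), none of which passed adjustment.

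The enzymes after kynurenine were read as the rest of the pathway. In the liver 1 of 10 passed higher in R6/2 vehicle mice and 9 lower, beside 12.9% and 12.8% of all liver genes, and the median log2 difference was −0.42 beside 0.0062 over all genes. Kmo, the drug's labelled target, averaged 249 ± 20.2 CPM in R6/2 vehicle liver and 333 ± 47.8 CPM in WT vehicle liver (log2 −0.41 ± 0.07; adjusted p = 5.436e-05, edgeR), with 8 of 10 R6/2 libraries below the lowest WT library. Kynureninase (Kynu) was at −0.43 ± 0.07, the aminotransferase Aadat at −0.69 ± 0.12, and Qprt, which leads to NAD, at −0.42 ± 0.09, and all passed. The 1 gene that passed higher was Kyat3, an aminotransferase that makes kynurenic acid, at 210 ± 37.7 CPM in R6/2 vehicle mice and 149.3 ± 57.8 CPM in WT vehicle mice (log2 0.56 ± 0.12; adjusted p = 0.000872), and it was named after its value was seen.

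In striatum and cortex 3 of the 10 genes after kynurenine averaged at least 1 CPM, the aminotransferase genes Got2, Kyat1 and Kyat3. Got2, which also serves amino acid metabolism in mitochondria, made up most of their sum, at 232 ± 13.1 CPM in R6/2 vehicle striatum and 242 ± 14.6 CPM in WT vehicle striatum. In the striatum 0 of 7 tested genes passed higher and 1 lower, Kyat3 at −0.48 ± 0.07, beside 29.7% and 26.5% of all genes. In the cortex Kyat1 passed higher (0.14 ± 0.06) and Kyat3 lower (−0.38 ± 0.08) among 6 tested, beside 28.1% and 26.9% of all genes. In the cerebellum 0 of 7 passed higher and 2 lower, Aldh8a1 and Got2, beside 52.3% of all genes in both directions. Kmo averaged 0.196 ± 0.0917 CPM in R6/2 vehicle striatum and 0.257 ± 0.145 CPM in WT vehicle striatum, with no call (adjusted p = 0.295). Kynu stood at 0.0575 ± 0.0461 CPM in R6/2 vehicle striatum and 0.0528 ± 0.0553 CPM in WT vehicle striatum, under the filter on low counts. Among genes that carry tryptophan or lead it to serotonin, Ddc, the decarboxylase that makes serotonin and dopamine, passed higher in R6/2 striatum (0.56 ± 0.08) and cortex (0.38 ± 0.09), and so did monoamine oxidase A, Maoa (0.20 ± 0.04 and 0.33 ± 0.04). In all, 2 of 9 of these genes passed higher and 2 lower in the striatum, beside 29.7% and 26.5% of all genes. In the liver 1 of 7 passed, beside 25.7%, so neither count stands above the share over all genes.

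Other hepatocyte genes were read beside Tdo2 in the liver, where 12.9% of all genes passed higher and 12.8% lower, with a median log2 difference of 0.0062. Of 16 genes of the glucocorticoid response, 1 passed higher and 4 lower, with a median of −0.38, and their summed level had a median of 4195 CPM in R6/2 vehicle mice, against 5523 CPM in WT vehicle mice. Tat, the tyrosine aminotransferase that glucocorticoids induce in hepatocytes, averaged 1012 ± 203 CPM in R6/2 vehicle liver and 1664 ± 741 CPM in WT vehicle liver (log2 −0.66 ± 0.16). Pck1, of glucose production, was at −0.87 ± 0.24, while Cdkn1a, a cell cycle inhibitor, was at 1.78 ± 0.43, and the receptor gene Nr3c1 did not pass (0.09 ± 0.07). Genes of the periportal zone passed lower in 8 of 10 cases, with a median of −0.52, led by Arg1, the arginase of the urea cycle (−0.73 ± 0.12). Genes of the pericentral zone passed lower in 6 of 11, with a median of −0.25, among them Cyp1a2 (−0.54 ± 0.16). The hepatocyte markers Alb, Apoa1, Apob, Fgb, Cyp2e1, Serpina1c and Ttr passed higher in 1 of 7 cases and lower in 2. The part of any of these groups in the Tdo2 difference was not tested.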

How the data were processed

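RNA was sequenced from 160 libraries in 16 groups of 10. Total RNA was extracted with a miRNeasy kit, per the labels. The authors deposited estimated counts per gene, 67.2% of whose values above 0 were exactly whole, and FPKM, which are scaled by gene length and library total. Per the submitters' processing notes CASAVA 1.8.2 was used. Which aligner, counter and genome build made the values is not given in the sources used here. Each column was matched to a sample through the library name in its label. All 160 of 160 count columns had sex-linked genes that match the labelled sex. Of 160 FPKM columns, 13 were most like the count column of the same header, and 160 were most like a column of the same group, so FPKM was read by group. Names and coordinates of 37607 of 39179 genes came from GENCODE M21 (GRCm38).

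Counts were rounded, filtered (filterByExpr), scaled (TMM) and tested per tissue with edgeR 4.0.16 in R 4.3.3 (robust quasi-likelihood, 8 means of genotype, treatment and sex), with Benjamini-Hochberg adjustment over all genes of a tissue and contrast at 0.05. The contrasts were genotype with vehicle and with CHDI-00340246, drug over both genotypes and within each, sex in WT vehicle mice, and the interactions. Tissues were compared in 1 fit of 160 libraries. The steps were tested on simulated data. Named beyond the 4 genes are Kmo, up to 4 passing genes per list with the smallest p, genes within 250 kb, and the 3 genes most like each of the 4 by Pearson r of log2 CPM, with exceptions said; 1 gene of a list is not reported here. The 4 genes and all lists were chosen with earlier results of these data known. Alternatives were RLE factors, no filter, DESeq2 1.42.0, limma 3.58.1 on FPKM, other covariates and leaving out each replicate number. Added after the data were seen were library totals, summing Afmid with Gm20708, and leaving out the library least like its group. Replicate numbers did not pair libraries of different groups within a tissue. Residuals of such libraries with the same number and sex had median correlations of −0.019, 0.028, −0.022 and 0.006 in striatum, cortex, cerebellum and liver. Libraries of different tissues were not compared in this way.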

Additional observations from a re-analysis of the deposited data

Results flagged for a closer look

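In 5 of 52 groups of 10 libraries tested, 1 library stood apart from the others, where chance gives about 1 in 20. Tdo2 was at 2.28 CPM in the striatum of R6/2 vehicle female replicate 1, against 0.496 to 1.29 CPM in the other 9 libraries, and at 2.11 CPM in WT male replicate 3 with CHDI-00340246, against 0.457 to 1.02 CPM. The sum of 6 hepatocyte markers was 57.6 CPM in the first of these, against 1.05 to 57.4 CPM in the others of its group, and 117.6 CPM in the second, against 0.464 to 30.4 CPM. Ido1 was at 33.5 CPM in the striatum of WT vehicle female replicate 1, against 20.5 to 27.4 CPM in the others. In the cortex it was at 0.347 CPM in R6/2 female replicate 5 with CHDI-00340246, against 0.0336 to 0.169 CPM, and at 0.871 CPM in WT female replicate 5 with CHDI-00340246, against 0.210 to 0.463 CPM. The sum of Drd2, Adora2a and Gpr6 in these 3 libraries was 658, 8.07 and 26.5 CPM, against at most 616, 6.45 and 15.8 CPM in the others of each group. In each of the 5 groups, 0 libraries had a higher marker sum than the 1 that stood apart, and the part of the marker tissue in these values was not tested.

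The genotype effect with vehicle differed between tissues in a test of the difference itself (edgeR, all libraries). For Tdo2 the log2 difference was 1.15 for striatum minus liver, 1.10 for cortex minus cerebellum, 1.84 for cortex minus liver and 0.74 for cerebellum minus liver. For Afmid it was 1.38 for striatum minus liver, 0.97 for cortex minus liver and 0.87 for cerebellum minus liver.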

How the results depend on the processing

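Of 1880 values recomputed under 17 settings, 1722 kept their direction and their side of the threshold, 19 crossed the threshold, 0 reversed with a call, and the others changed sign but passed under neither setting. These include the genotype effects of Afmid in the liver, at up to 0.1002 with vehicle and 0.124 with CHDI-00340246, and of Tdo2 in the striatum with CHDI-00340246, at up to 0.0490. The genotype effect of Ido2 in the striatum with vehicle was −0.15 (adjusted p = 0.223) with FPKM and a pseudocount of 0.1, −0.063 with a pseudocount of 1 and −0.26 with library totals, none of which passed. That of Tdo2 in the cerebellum with CHDI-00340246 was −0.13 and −0.11 with FPKM and these pseudocounts and −0.17 with the L code of the library names. The interaction of sex and genotype of liver Tdo2 passed with DESeq2 (0.89) and without the library least like its group (0.97, adjusted p = 0.0366). Genes passing in the liver with vehicle numbered 3890, and 6219 with library totals, which moved the median log2 difference of all liver genes to 0.195.

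Leaving out each replicate number in turn gave −0.52 to −0.30 for Ido2 in the striatum with CHDI-00340246 (call lost without replicate 3, adjusted p = 0.0624), −0.40 to −0.16 for Tdo2 in the cerebellum with vehicle (gained without replicate 4), −0.68 to −0.30 with CHDI-00340246 (lost without replicates 2, 3 or 5), 0.66 to 1.16 for the sex interaction of liver Tdo2 (gained without replicates 1 or 5), −0.93 to −0.39 for the Tdo2 effect in striatum minus cortex (gained without replicates 1 or 4), and 2228 (without replicate 3) to 4046 genes passing in the liver. With the replicate number as a block, which does not pair the libraries, Ido1 in the striatum was at −1.25, Tdo2 in the liver at −1.05, Tdo2 in the cortex at 0.86 and Afmid in the striatum at 1.27, and no call of the 4 genes with vehicle changed; libraries were most like their own number in 10, 12, 9 and 11 of 40. The cause of these shifts was not tested. Depth limits Ido1 outside the striatum and Ido2 in the cerebellum, where few counts stand behind each value.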
